A study of Mus musculus with 4 samples.

Results

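The genes examined encode 10 surface proteins by which blood stem and progenitor cells are recognised or held in the bone marrow: Tek, Cxcr4, Procr, Slamf1, Cd34, Ly6a, Cd48, Esam, Itga4 and Cd44. They are 10 of 21887 protein-coding genes annotated on chromosomes 1 to 19, X and Y, and were taken as a named list. For each gene, all peaks with a summit in the gene body or within 50 kb of either end were taken, and a summit within 1000 bp of an end is called a gene-end summit. The peaks come from ChIP-seq, in which an antibody (here to Flag) pulls down a DNA-bound protein and the attached DNA is sequenced. The cells were lineage-negative marrow cells, from which cells bearing mature-lineage surface markers have been removed. They were from 8-week-old C57BL/6 mice with a transgene for Nynrin carrying a triple Flag tag (genotype 3xFlag-Nynrin-Tg), and this genotype is shared by all 4 libraries. There are 2 Flag ChIP libraries, each with a peak list, and 2 input libraries that were not analysed here. No untagged or control-antibody library was used here, and the promoter that drives the transgene and its copy number are not given in the sources used here. Whether the replicates are separate animals is not stated in the labels either, so likeness between them may be technical. The values are peaks called from a Flag pull-down of DNA, so they do not check the labelled cell type, and no level of any gene's RNA was measured.

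Stem cells stay in the marrow through receptors that read signals from neighbouring cells and through molecules that grip the matrix and the vessel wall. Tek (Tie2) is the receptor tyrosine kinase for angiopoietins, and Cxcr4 is the receptor for the chemokine Cxcl12, which retains stem cells in marrow. Procr, the endothelial protein C receptor, Slamf1 (CD150), Cd48, Cd34, Ly6a (Sca-1) and Esam, an adhesion molecule shared with endothelium, are used as markers to sort mouse stem and progenitor cells. Itga4 is the alpha chain of the integrin that binds Vcam1, and Cd44 is a hyaluronan receptor.

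Of the 10 genes, Tek, Cxcr4 and Itga4 had a gene-end summit in both replicates, Cd44 and Cd48 had one in replicate 2 alone, and Procr, Slamf1, Cd34, Ly6a and Esam had none (5 of 10, against 53.8% of all protein-coding genes). The count in both replicates was 3 of 10, against 31.9% of all protein-coding genes by the same rule, so the genes stood near the background. It was 3 of 10 in replicate 1, against 32.6%, and 5 of 10 in replicate 2, against 45.5%. The strongest sites of the group were a pair of peaks at Tek. By the lower of its percentiles in the 2 lists the Cxcr4 promoter came next, and the Itga4 promoter peak was weak in replicate 1.

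The sequence before the start site is shown for the 3 genes with gene-end summits in both replicates, for Cd44, with a summit in replicate 2 alone, and for Cd34, with none. Each run is the 250 bases before a RefSeq start site (build GRCm38.p6, the assembly behind mm10), printed 5′ to 3′ on the gene's own strand. They lie at chr4:94739039-94739288 (plus strand, Tek), chr1:128592300-128592549 (minus strand, Cxcr4), chr2:79255176-79255425 (plus strand, Itga4), chr2:102901666-102901915 (minus strand, Cd44) and chr1:194938571-194938820 (plus strand, Cd34). Capitals mark matches, on either strand, to the short motifs listed further on.
Tek: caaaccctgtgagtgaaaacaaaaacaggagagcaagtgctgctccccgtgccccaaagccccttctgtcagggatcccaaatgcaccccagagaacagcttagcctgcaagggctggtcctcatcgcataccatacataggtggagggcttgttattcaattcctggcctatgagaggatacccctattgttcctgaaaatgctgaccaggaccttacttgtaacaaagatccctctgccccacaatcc
Cxcr4: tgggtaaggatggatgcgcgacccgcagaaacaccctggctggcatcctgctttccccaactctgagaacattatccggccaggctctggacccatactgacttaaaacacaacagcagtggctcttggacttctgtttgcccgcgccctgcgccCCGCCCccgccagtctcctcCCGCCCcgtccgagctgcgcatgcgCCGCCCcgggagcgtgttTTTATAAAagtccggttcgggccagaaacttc
Itga4: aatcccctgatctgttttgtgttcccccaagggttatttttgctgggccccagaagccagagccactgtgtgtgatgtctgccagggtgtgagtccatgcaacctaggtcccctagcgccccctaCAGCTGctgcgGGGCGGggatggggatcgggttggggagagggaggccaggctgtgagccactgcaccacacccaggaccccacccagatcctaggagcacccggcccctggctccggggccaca
Cd44: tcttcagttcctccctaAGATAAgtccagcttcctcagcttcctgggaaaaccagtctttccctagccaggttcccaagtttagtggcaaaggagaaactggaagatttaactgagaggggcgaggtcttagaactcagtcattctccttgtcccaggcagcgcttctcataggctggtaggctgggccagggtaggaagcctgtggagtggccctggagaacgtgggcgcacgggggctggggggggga
Cd34: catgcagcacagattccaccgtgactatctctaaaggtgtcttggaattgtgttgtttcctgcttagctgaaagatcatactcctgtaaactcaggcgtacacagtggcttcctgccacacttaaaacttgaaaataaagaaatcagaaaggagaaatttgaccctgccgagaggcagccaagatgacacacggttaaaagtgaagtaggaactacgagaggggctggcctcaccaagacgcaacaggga
The Cxcr4 run is rich in CpG and holds 3 GC boxes and a TATA box, whereas the Tek and Cd34 runs hold none of the motifs searched.

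Among the niche receptors, Tek carried 2 peaks in each replicate and no other within 50 kb. The gene spans 94739086 to 94874976 on chromosome 4. In replicate 1 its promoter peak covered 94737507 to 94739564, and the replicate 2 peak there covered 94737526 to 94739792. Fold enrichment, the authors' ratio of signal over the peak caller's background at the summit, was 8.78 in replicate 1 and 17.4 in replicate 2. Because fold enrichment is not comparable in size between the lists, each peak was also placed by its percentile in its own list, where a percentile near 100 marks a peak stronger than nearly all others. The promoter peak stood at percentile 99.3 in replicate 1 and 99.97 in replicate 2, with −log10 q values of 34.7 and 59.0. Its summits lay 116 and 534 bp before the RefSeq start site, the first of them inside the sequence printed for Tek.

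The other Tek peak lay inside the gene, with summits 6589 and 6339 bp after the start site. It covered 94745393 to 94746872 in replicate 1, and 94745330 to 94746921 in replicate 2. Its fold enrichment was 9.29 in replicate 1, above that of the promoter peak in the same list, and 14.3 in replicate 2, below it. The percentiles were 99.6 and 99.7. When the 11327 replicate 1 peaks with a partner (an overlapping peak in the other replicate, by at least 1 bp) were ranked by the lower of their percentiles in both lists, this peak ranked 4 and the promoter peak ranked 13. Among the 5058 of them lying over 1000 bp from all protein-coding gene ends, the inner Tek peak ranked 1.

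Both Tek peaks were wide. The promoter peak was 2058 and 2267 bp wide, and the inner peak was 1480 and 1592 bp wide, where the median peak was 523 bp in replicate 1 and 620 bp in replicate 2. The edges of the inner peak differed between replicates by 63 and 49 bp. Over 10087 pairs of 1 peak with 1 peak, the larger of the edge differences had a median of 342 bp, and 3.15% of pairs had one smaller than that of the inner Tek peak. The promoter peak's edges differed by 19 and 228 bp, and 29.0% of pairs had a smaller difference. The summits lay 418 bp apart in the promoter peak and 250 bp apart in the inner peak, both more than the median of 110 bp over these pairs. Fragments of the Tek promoter and first intron are widely used to drive transgenes in endothelial and blood cells. Extra copies of a stretch of DNA and binding of the tagged protein to it cannot be told apart in these lists, which carry no input values, and whether the transgene holds Tek sequence was not tested.

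Cxcr4 had the second-ranking gene end of the group. The gene spans 128588199 to 128592299 on chromosome 1, on the minus strand. The promoter peak ran from 128590584 to 128592785 in replicate 1, with a fold enrichment of 6.25 (percentile 92.6), and from 128590566 to 128593680 in replicate 2, with 11.2 (percentile 97.1). The summits were 124 and 203 bp before the start site, 79 bp apart and both within the printed Cxcr4 run. The peak was among the widest of each list, at 2202 and 3115 bp (percentile 99.3 and 99.4 by width), and extended over the start site into the gene.

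Further Cxcr4 peaks lay on both sides of the gene. There were 5 replicate 1 peaks in the locus, all with partners, and 8 in replicate 2. The replicate 2 peaks without a partner lay 1179 bp (fold enrichment 4.78) and 38643 bp (3.99) beyond the 3′ end and 5074 bp before the start site (3.19). Beyond the 3′ end, pairs stood 17657 and 26494 bp from the gene in replicate 1, with fold enrichments of 4.10 and 4.08 there and of 5.71 and 5.85 in replicate 2. Before the start site, a pair stood 22600 bp away in replicate 1 (3.44, and 5.58 in replicate 2). The last pair, 39395 bp beyond the 3′ end in replicate 1 (3.13 and 3.72), was at an end of the long noncoding RNA gene Gm41950. Cxcr4 thus had 4.80 peaks per 100 kb of locus in replicate 1 and 7.68 in replicate 2, and 94.7% and 91.6% of protein-coding genes had fewer.

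**Figure D1:**
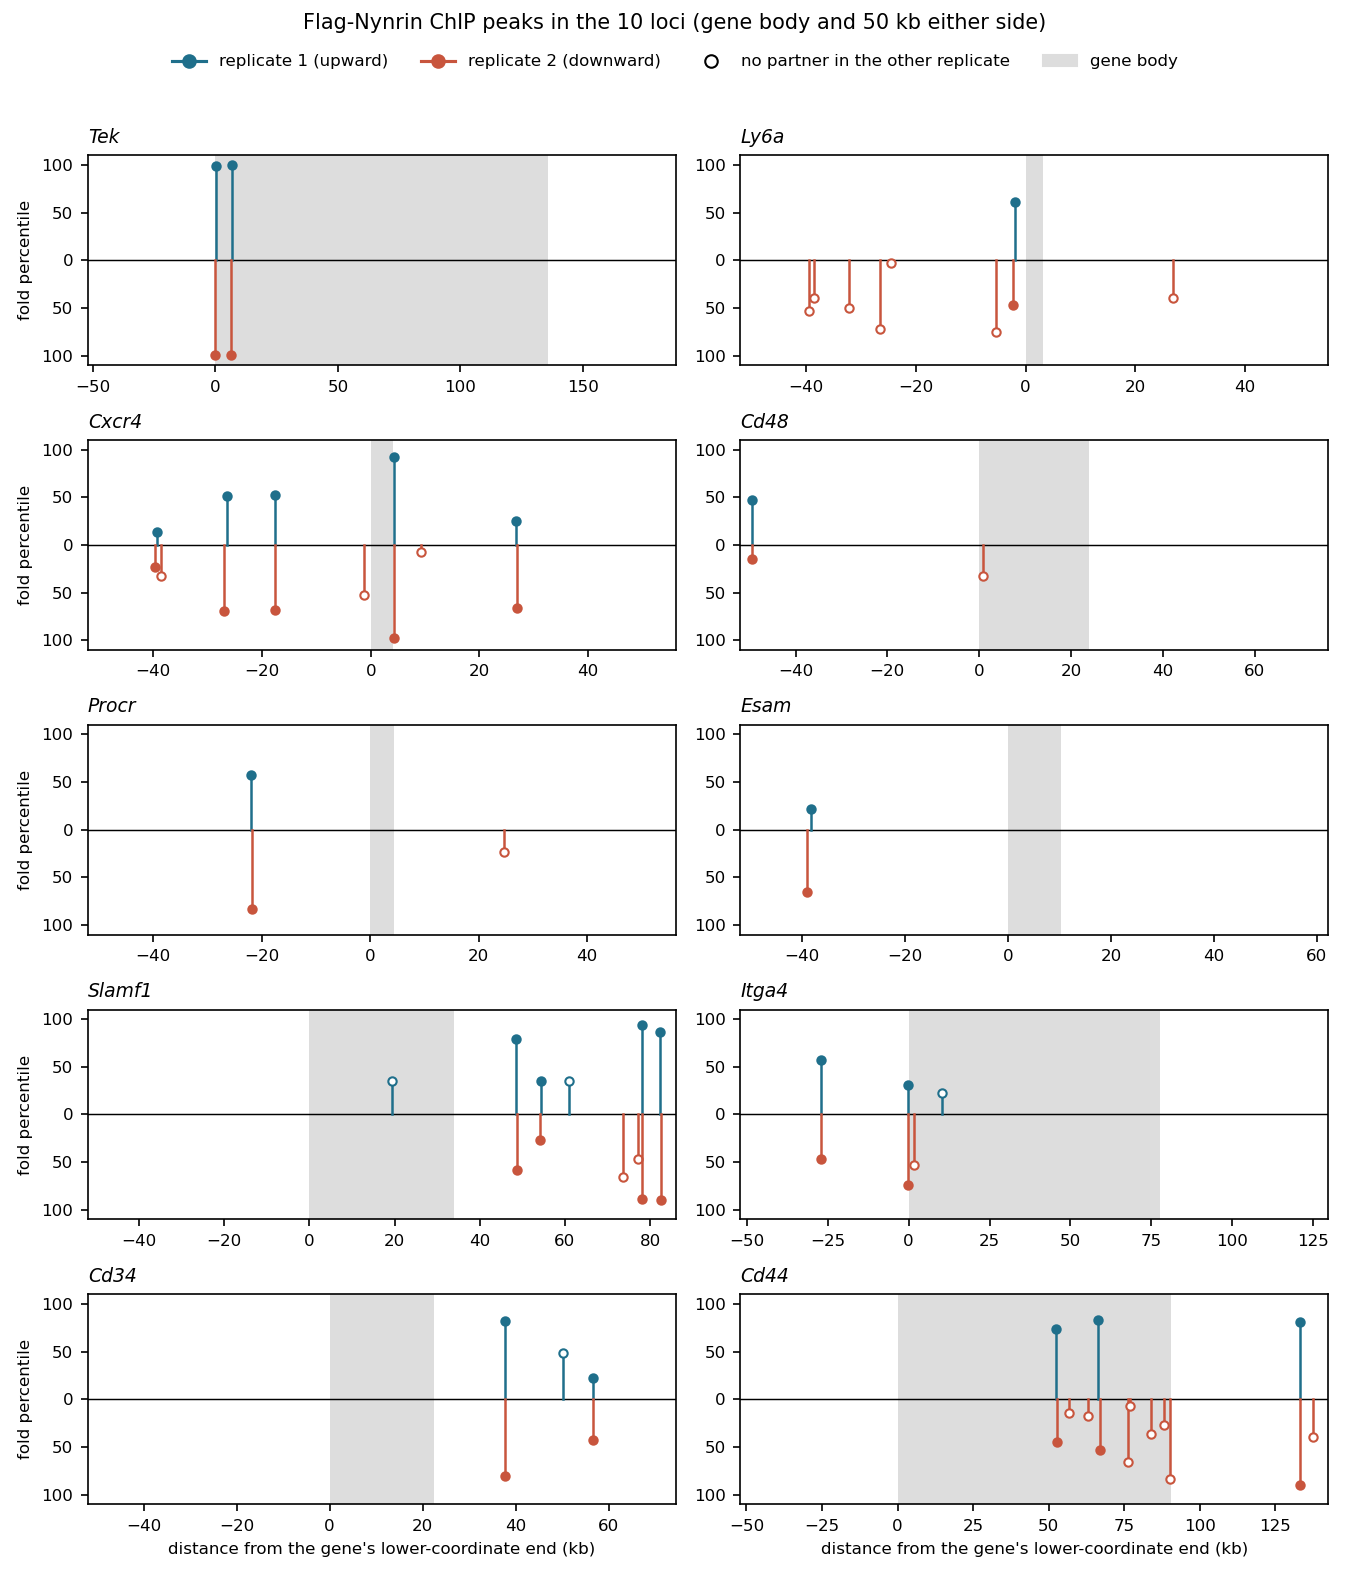
Peak summits in the 10 loci, with the distance from the gene's lower-coordinate end in kb on the x axis and the percentile of fold enrichment on the y axis, upward for replicate 1 and downward for replicate 2. Filled circles have a partner in the other replicate, open circles have none, and grey marks the gene body. Tek shows 2 paired peaks near percentile 100 and nothing else, while Cd44 and Ly6a show many open circles in replicate 2.

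The adhesion receptors had weaker promoter peaks. Itga4 spans 79255426 to 79333114 on chromosome 2, on the plus strand. Its promoter peak ran from 79254771 to 79255386 in replicate 1 (fold enrichment 3.61, percentile 30.8, −log10 q 4.03) and from 79254532 to 79255823 in replicate 2 (6.38, percentile 74.4, −log10 q 11.2). The summits lay 231 and 117 bp before the start site, and both fall in the Itga4 run printed above. The peak thus shared its position in both lists but stood in the lower part of one and the upper part of the other. Itga4 lost its gene-end summit in replicate 1 when a −log10 q of 5 or more was required, where 21.1% of all genes kept theirs in both replicates, and likewise at a fold enrichment of 5 or more. A further pair lay 27192 bp before the gene in replicate 1 (4.26 and 4.52). Inside the gene, replicate 1 had a peak 10393 bp after the start and replicate 2 had one 1786 bp after it, each without a partner.

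Cd44, at 102811141 to 102901669 on chromosome 2 on the minus strand, had a promoter peak in replicate 2 alone. It ran from 102900877 to 102901788, with its summit 267 bp after the start site, a fold enrichment of 7.51 and a percentile of 83.5. The nearest replicate 1 summit to an end of Cd44 was 24097 bp away, inside the gene. That summit (5.397) and another 37948 bp inside (4.83) had partners in replicate 2 (4.78 and 4.48). In all, replicate 2 had 9 peaks inside Cd44 and replicate 1 had 2, and of the 7 without a partner, the 6 not at the gene end had fold enrichments of 3.19 to 5.58. A stronger pair lay 42513 bp before the gene in replicate 1, inside the long noncoding RNA gene Gm34483 (5.24 and 8.77, percentiles 81.4 and 90.03). A gene-end summit in replicate 2 and not in replicate 1 was found at 13.6% of all protein-coding genes.

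Among the signalling lymphocyte activation molecule (SLAM) receptors, Cd48 and Slamf1 are neighbours on chromosome 1, and lack of Cd48 with presence of Slamf1 is a common sorting rule for stem cells. Cd48 spans 171681245 to 171705258, on the plus strand. It had a weak peak in replicate 2 alone, from 171681956 to 171682525 (fold enrichment 3.99, percentile 32.3). The summit was 763 bp inside the annotated lower end, which makes it the gene-end summit closest to the 1000 bp limit, but 16 bp after the RefSeq start site. The only Cd48 pair was 49523 bp below the gene in replicate 1, at an end of its relative Slamf7 (3.98 and 3.45).

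Slamf1 (171767131 to 171801184, plus strand) had no summit within 14573 bp of an end in replicate 1 or 14766 bp in replicate 2. The sole peak in the gene body, in replicate 1, had a fold enrichment of 3.69 and no partner. Between the 3′ end of Slamf1 and the next SLAM family gene, Cd84, and inside Cd84, the locus held 4 pairs. The strongest were both inside Cd84, 44037 bp (6.53 and 8.50) and 48389 bp (5.64 and 8.77) beyond Slamf1 in replicate 1. The pair 14573 bp beyond the gene in replicate 1 had 5.11 and 5.05, and the one 20348 bp beyond it had 3.69 and 3.79. The Slamf1 locus had 4.48 peaks per 100 kb in both replicates, more than 93.1% of genes in replicate 1 and 76.2% in replicate 2.

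**Figure D2:**
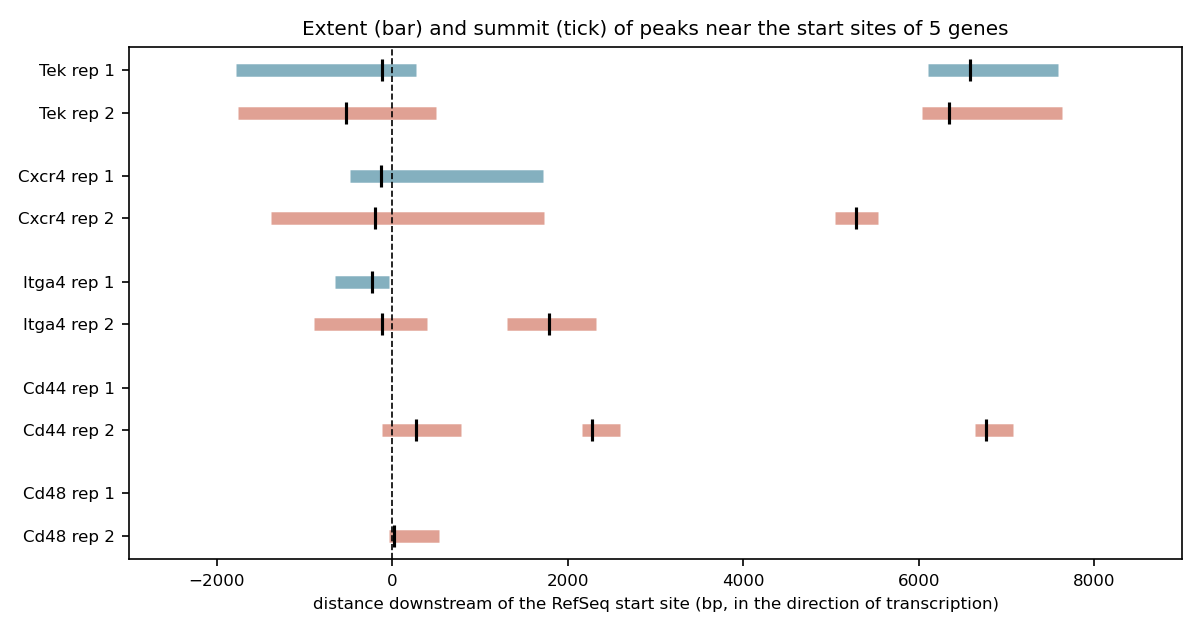
Extent (bars) and summit (black ticks) of the peaks near the RefSeq start sites of the 5 genes with a gene-end summit in at least 1 replicate, on an x axis of distance in bp along the direction of transcription. Replicate 1 bars are blue and replicate 2 bars are red. Tek, Cxcr4 and Itga4 have bars at the start in both replicates, Cd44 and Cd48 in replicate 2 alone, and Tek has its inner pair of bars with summits 6589 and 6339 bp after the start.

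The other sorting markers had no gene-end summit. Cd34, which encodes a sialomucin, spans 194938821 to 194961292 on chromosome 1 on the plus strand. Its nearest summits were 15301 bp beyond the 3′ end in replicate 1 and 15286 bp in replicate 2, from peaks with fold enrichments of 5.27 and 7.17 (percentiles 81.8 and 80.9) at 194976354 to 194976786 and 194976302 to 194977256. They lie at an end of the long noncoding RNA gene Gm16897, and their summits were 15 bp apart. A weaker pair stood 34091 bp beyond Cd34 in replicate 1 (3.38 and 4.28), inside Gm32250, and replicate 1 had an unpaired peak at an end of that gene (4.005). The Cd34 body held no peak in either list.

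Procr (155751125 to 155755478 on chromosome 2, plus strand) was without a summit for 22029 bp in replicate 1 and 20308 bp in replicate 2. The pair below it was at the end of Edem2, which encodes a protein of endoplasmic reticulum quality control (4.26 and 7.44). The replicate 2 peak above it was at the end of the metalloproteinase gene Mmp24 (3.72). Esam (37528089 to 37538319 on chromosome 9) had 1 peak in each list, both inside its neighbour Msantd2, 38247 bp from Esam in replicate 1 (3.36) and 39027 bp in replicate 2 (5.58). The summits of that pair lay 780 bp apart, the largest distance among the pairs of these loci.

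Ly6a (74994877 to 74998031 on chromosome 15) was the gene just outside the 1000 bp limit. A pair of peaks lay below it, with summits 1920 bp away in replicate 1 (fold enrichment 4.37) and 2312 bp in replicate 2 (4.52), inside the long noncoding RNA gene Gm41348. With a limit of 3000 bp Ly6a would count in both replicates, as would 36.8% of all protein-coding genes. Replicate 1 had no other peak in the locus, and replicate 2 had 8 in all, including peaks at the pseudogene Gm8000 (6.40), at the end of the relative Ly6e (4.78) and between these (2.92 to 6.11). The Ly6 genes are a cluster of close copies, and how reads mapping to several copies were treated is not given in the sources used here.

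Over the 10 loci, replicate 1 had 26 peaks and replicate 2 had 45, and all 10 loci held at least 1 pair, as did 60.8% of all protein-coding genes. Of the replicate 1 peaks, 22 had a partner (84.6%, exact Clopper-Pearson 95% interval 65.1 to 95.6%), against 89.2% in the whole list. Of the replicate 2 peaks, 22 had a partner (48.9%, 33.7 to 64.2%), against 41.8%. Both intervals include the value of the whole list, but they rest on the same 22 pairs and are not a test. They treat peaks as independent draws, which neighbouring peaks are not. The median number of peaks per 100 kb was 1.27 for these genes and 0.857 for all genes in replicate 1, and 1.80 and 1.78 in replicate 2.

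Of the 22 pairs, 3 lay at an end of one of the 10 genes and 19 elsewhere, some of them at ends of other genes such as Edem2 and Slamf7. The same split was not computed for the loci of all protein-coding genes, so whether it is particular to these loci was not tested. In the whole list, 6269 of the 11327 paired replicate 1 peaks lay within 1000 bp of an end of any protein-coding gene, which is a wider rule. Both percentiles were above 90 for 3 pairs, the 2 of Tek and the Cxcr4 promoter pair, against 5.93% of all pairs. Both were above 80 for 7 pairs, against 15.0% of all pairs, the remaining 4 being the pairs inside Cd84, the one at Gm16897 beyond Cd34 and the one in Gm34483 before Cd44. Both were above 50 for 12 pairs, against 45.0% of all pairs. A pair inside the gene and over 1000 bp from its ends was found in Tek and Cd44, and in 10.3% of all protein-coding genes.

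**Figure D3:**
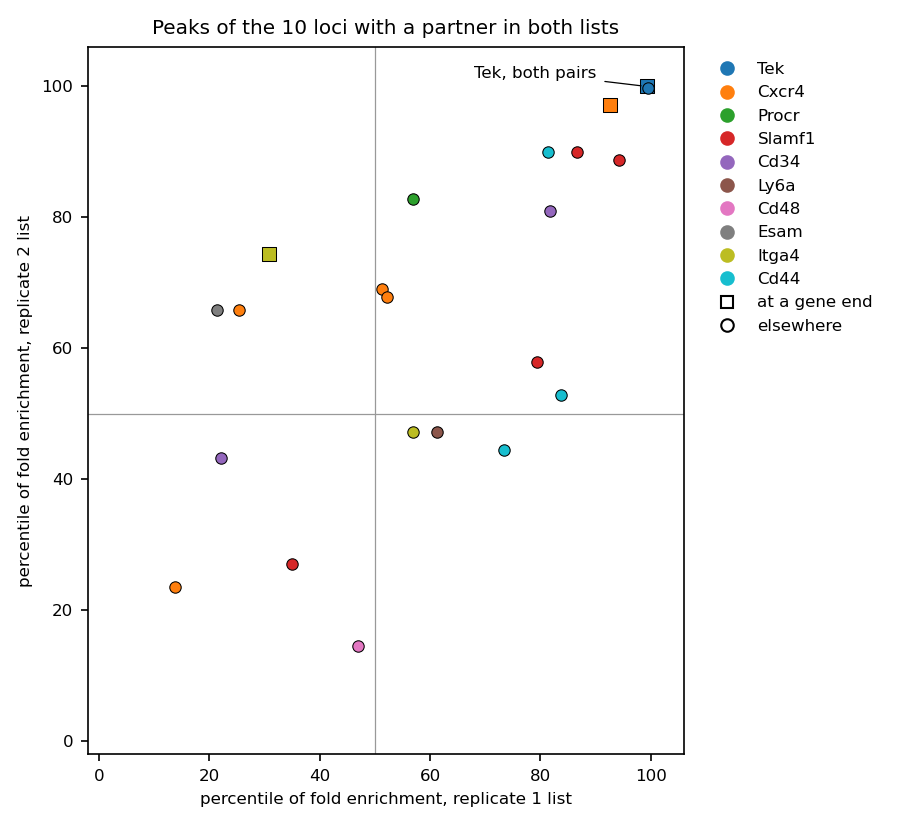
Percentile of fold enrichment in the replicate 1 list (x axis) and in the replicate 2 list (y axis) for the 22 pairs of the 10 loci, coloured by gene, with squares for pairs at an end of the gene and circles for others. Grey lines mark percentile 50. The 2 Tek pairs lie together at the upper right corner, and the Itga4 promoter pair lies left of the line, at 30.8 and 74.4.

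Promoter sequence was compared next, over windows of 300 bases from 250 before to 50 after a RefSeq start site. Such a window was at hand for 8 of the 10 genes, Ly6a and Esam being without one, and for 17492 protein-coding genes in all, which gave 21263 windows. A peak overlapped the window of Tek, Cxcr4 and Itga4 in both replicates (33.1% of genes with a window), and those of Cd44 and Cd48 in replicate 2 alone (13.9% of genes with a window). CpG content was taken as observed over expected CpG, which is near 1 where methylation has not depleted CpG and low elsewhere. Its median was 0.848 in the 6646 windows overlapped in both replicates and 0.266 in the 11605 overlapped in neither.

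Cxcr4 had 20 CpGs and a ratio of 0.767, in the range usual for overlapped windows. Tek had 3 CpGs and a ratio of 0.149, and Itga4 had 10 and 0.322. Of the 6646 windows overlapped in both replicates, 35 (0.527%) had a ratio as low as that of Tek, and of the 3453 windows in all with so low a ratio, 1.01% were overlapped in both. For Itga4 these shares were 2.33% and 2.16%. Of the other windows, Slamf1 (0.223), Cd44 (0.246), Cd34 (0.374) and Cd48 (0.417) were also CpG-poor, and Procr (0.528) was nearer the median of all windows, 0.567. The Tek promoter peak thus lay at a window with few CpGs, while its percentiles were among the highest of both lists.

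**Figure D4:**
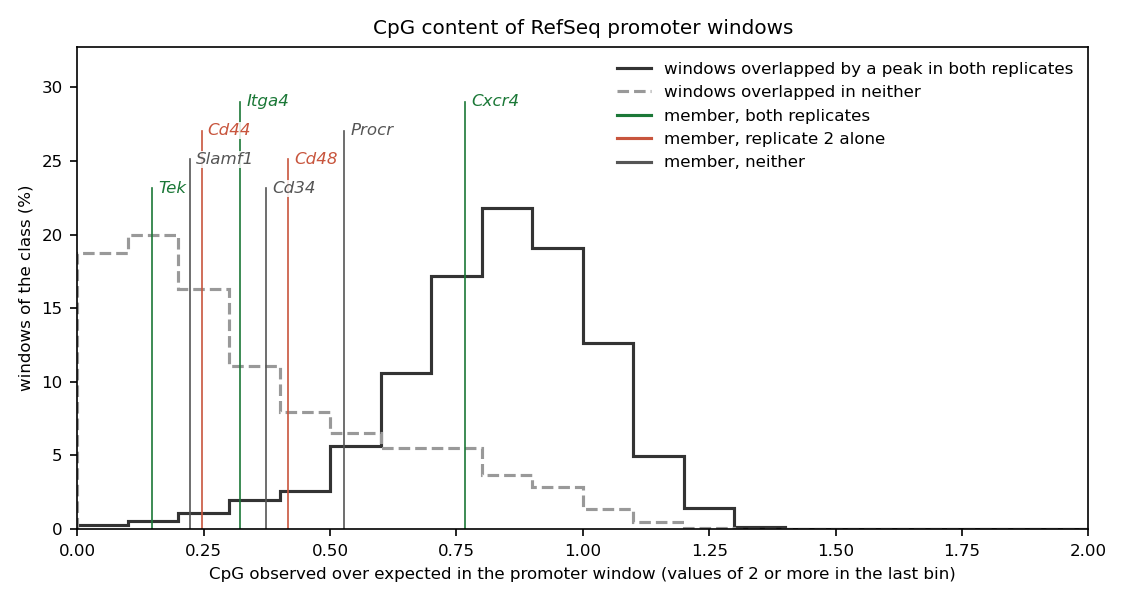
Distribution of CpG observed over expected (x axis) in promoter windows overlapped by a peak in both replicates (solid line) or in neither (dashed line), as percent of the windows of each class (y axis). Vertical lines mark the 8 genes with a window, in green for both replicates, red for replicate 2 alone and grey for neither. Cxcr4 at 0.767 falls within the bulk of the solid line, and Tek at 0.149 falls in its far left tail.

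Short motifs were searched on both strands of the 300-base windows, as a description of letters only. GGGCGG, the GC box, was in the windows of Cxcr4 (3 matches), Itga4 and Cd44 (1 each), and in 46.2% of all windows. The Cd44 match lies after the start site. TATAAA, the TATA box, was in that of Cxcr4, starting 32 and 30 bases before the start site on the 2 strands, where the matches overlap, and in 12.6% of all windows. AGATAA, the letters that GATA factors bind, was in the windows of Tek, where it lies after the start site, and Cd44 (9.65% of all). CAGCTG, an E-box, was in those of Procr, Slamf1 and Itga4 (15.6%). CCGGAAG, an ETS-type motif, was in that of Cd48 (11.6%), and TGACTCA, the AP-1 motif, in that of Procr (4.66%). No match in the 8 windows was found for CCAAT, the CCAAT box, which 38.2% of all windows held, or for TGACGT, a cyclic AMP response motif held by 8.49%. The same was so for the RUNX-type motif TGTGGTT, held by 4.71% of all windows, and for the E-box CACGTG, held by 7.84%.

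The partners of these receptors were examined with 10 lists of related genes, which held 107 different protein-coding genes. Of them, 27 (25.2%) had a gene-end summit in both replicates, against 31.9% of all protein-coding genes. Another 23 had one in replicate 2 alone, against 13.6% of all, and none had one in replicate 1 alone. The remaining 57 had none in either, a state held by 53.8% of all. Requiring −log10 q of at least 5 left 14, against 21.1% of all genes. Where a gene is given 2 fold enrichments below, each is from the strongest summit at either end in that replicate. They need not come from the same site.

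Of 9 genes linked to Tek, 4 had gene-end summits in both replicates, against 31.9% of all protein-coding genes, the share to set beside each list here. They were the adaptor genes Grb2 (fold enrichment 7.44 in replicate 1 and 11.96 in replicate 2), Dok2 (3.79 and 6.64) and Shc1 (3.39 and 10.9) and the kinase subunit gene Pik3r1 (3.54 and 8.50). The strongest Shc1 peaks were shared with different genes, Pygo2 in replicate 1 and Cks1b in replicate 2, so the Shc1 values are not read as a shared peak. The angiopoietin gene Angpt1 had one in replicate 2 alone (3.55), and Tie1, the sister receptor of Tek, had none. Of 8 genes linked to Cxcr4, 3 had them in both replicates: Arrb2, a beta-arrestin gene (8.35 and 12.4), the G protein gene Gnai2 (5.36 and 10.9) and the receptor kinase gene Grk2 (4.55 and 7.17). The receptor gene Cd74 and Mif, which encodes its ligand, had one in replicate 2 alone (3.99 and 6.11). Cxcl12 and the scavenging receptor gene Ackr3 had no peak in the gene or within 50 kb in either replicate, which held for 27.7% of all protein-coding genes. No such summit in both replicates was found for the 6 genes linked to Procr.

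For adhesion, 5 of 12 integrin genes and partners had gene-end summits in both replicates, against 31.9% of all protein-coding genes. They included those for the integrin activators kindlin-3 (Fermt3, 4.15 and 7.44) and talin (Tln1, 3.76 and 12.5, shared with Creb3), Itgb2 (3.45 and 3.99) and Madcam1 (4.62 and 3.19, near Tpgs1 in replicate 1). Itgb1, the usual partner chain of Itga4, had one in replicate 2 alone (5.85), and its ligand gene Vcam1 had none. Of 11 genes linked to Cd44, 2 had them in both, against the same 31.9%: Ezr, which encodes the membrane linker ezrin (4.81 and 9.06), and Hmmr, another hyaluronan receptor gene (7.48 and 5.87, shared with Nudcd2). None of 7 junctional adhesion genes chosen beside Esam had a gene-end summit in either replicate, a state held by 53.8% of all protein-coding genes. Of their loci, 4 held peaks: Pecam1 (6 in replicate 1 and 15 in replicate 2), F11r (5 and 8), Jam2 (2 in each) and Cldn5 (1 and 2). The loci of Cdh5, Jam3 and Magi1 held none in either replicate, which was so for 27.7% of all protein-coding genes.

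For the lists in this paragraph too, the share of all protein-coding genes with gene-end summits in both replicates was 31.9%. Among relatives of the sorting markers, 3 of 10 SLAM family genes and partners had such summits in both replicates, namely Slamf7 (3.98 and 3.45), Slamf6 (3.69 and 3.19) and the kinase gene Fyn (2.51 and 5.58). All 3 were weak in at least 1 list, with a lower percentile of 14.5 for Slamf7, 7.13 for Slamf6 and 1.51 for Fyn. None of 12 Ly6 family genes had a gene-end summit in both, and Ly6e had one in replicate 2 alone. Of 6 genes listed with Cd34, 4 had them in both, including Podxl2 (5.82 and 9.06, shared with Abtb1), Cd164 (4.91 and 10.1) and Crkl (4.04 and 5.46). Of 26 other stem cell surface receptors and their ligands, 6 had them in both, including Notch2 (4.996 and 5.95), Ptprc, which encodes CD45 (5.68 and 5.58), Csf2rb (3.88 and 4.78) and Tgfbr1 (3.69 and 10.6). The cytokine receptor genes Kit and Flt3 had one in replicate 2 alone (4.25 for each).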

How the data were processed

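Flag ChIP-seq peak lists of 2 libraries were analysed. The submitters' processing notes name MACS2, Bowtie2, cutadapt, FastQC, Trimmomatic and ChIPseeker, without versions or their order, and the mm10 build. How peaks were called (control library, cutoff) is not given in the sources used here. For each peak the authors deposited a fold enrichment, which is a linear ratio, −log10 p and −log10 q values, and a score, which was not used. Without read counts in the lists, sequencing depth is unknown. Peaks were called per library, as the deposited peak names show.

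Kept were the peaks of autosomes 1 to 19 and the X and Y chromosomes (12702 in replicate 1 and 25787 in replicate 2), with positions counted from 1. Gene bounds came from a RefSeq table of GRCm38.p6, and strands, start sites and sequences from a RefSeq promoter table of the same build. Exons were not used here. Percentiles are mid-ranks within a list. No test was run: counts stand beside the percent of all 21887 protein-coding genes. The members and lists were chosen with earlier results of these data known. All peaks in the loci of the 10 members are drawn in the figure of the loci, and some without a partner are not described in the text. Named genes were all 10 members, protein-coding genes with an end at a summit in these loci, listed genes named whatever their values (Angpt1, Tie1, Cxcl12, Ackr3, Vcam1, Itgb1, Kit and Flt3 among them), and up to 4 genes per list with the highest lower percentile. Some genes that this rule picks are left out here. Cd84, Cd74, Mif, the 7 junctional genes, Msantd2, Ly6e, the noncoding genes and Cdkn2d were named after their values were seen. The code was tested on simulated data. Calculations used Python 3.11.15, numpy 2.4.6, pandas 2.3.3 and scipy 1.17.1.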

Additional observations from a re-analysis of the deposited data

How the results depend on the processing

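Tek and Cxcr4 kept gene-end summits in both replicates with a window of 500 bp, with a −log10 q or a fold enrichment of 5 or more, and with summits near several genes left out. A wider window or 1 replicate alone cannot end a call made in both. Of 70 gene-by-gene settings, 5 changed the state: Ly6a entered with 3000 bp, Itga4 left with either cutoff, and Cd44 and Cd48 entered with replicate 2 alone. The count of 3 genes ranged from 3 to 5 when a replicate was left out: 5 without replicate 1, where 45.5% of all genes were called, and 3 without replicate 2 (32.6%). It was 3 with 500 bp (27.9% of all genes), 4 with 3000 bp (36.8%), 2 with −log10 q of at least 5 (21.1%), 2 with fold enrichment of at least 5 (9.52%) and 3 with summits near several genes left out (21.7%). With RefSeq start sites in place of gene ends it was 3 of 8 genes, against 34.5%. The 27 related genes with gene-end summits, of 107, became 50 without replicate 1 (45.5% of all genes) and stayed 27 without replicate 2 (32.6%). They were 14 with −log10 q of at least 5 (21.1%). The 26 replicate 1 peaks became 12 with 20 kb flanks, 38 with 100 kb and 12 with −log10 q of at least 5. The 45 replicate 2 peaks became 22 with 20 kb flanks, 74 with 100 kb and 29 with −log10 q of at least 5. The 22 replicate 1 peaks with a partner, of 26, became 12 when overlap of 50% of both peaks was required, against 47.1% of the whole list. They became 14 when summits had to lie within 200 bp, against 62.4% of the whole list. These changes follow from fewer peaks, narrower or wider windows or a stricter overlap. No paired analysis was possible because the input libraries, which share the replicate numbers, were not analysed here and no result comes from a test.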

Other observations

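A search made after the Tek values were seen asked how many genes hold more than 1 strong pair. Of the replicate 1 peaks with a partner, 246 had both percentiles at 95 or above. Tek and Cdkn2d, a cyclin-dependent kinase inhibitor gene on chromosome 9, were the 2 protein-coding genes with at least 2 such peaks in the gene or within 1000 bp of it. The Cdkn2d peaks had fold enrichments of 6.66 and 6.85 in replicate 1 and of 13.6 and 11.1 in replicate 2.

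Surface genes of the mature lineages, whose bearers had been depleted, were also described. Of 11 such genes, 1 had a gene-end summit in both replicates, which was the myeloid integrin gene Itgam (5.28 and 6.38), against 31.9% of all protein-coding genes. The other 10, among them Cd3e, Cd4 and Ly6g, had none in either replicate, a state held by 53.8% of all protein-coding genes. Ly6g was also counted in the Ly6 family list.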
